A study of Mus musculus with 3 samples.

Results

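Heat shock proteins and chaperones were taken from the deposited expression table of mouse dentate gyrus by gene symbol. The rule took names of the Hsp series ending in a number and optional letters, numbered Dnaja, Dnajb and Dnajc names, the subunits Cct2 to Cct8, and Tcp1, Hsf1, Bag1, Bag3 and Stip1. It found 86 gene names among 33101 names with a value in the table, on 87 rows, because Hspa14 has 2 rows that were summed. The rule used names only and no measured value, although earlier results of these data were known when it was set. Of these members, 84 encode chaperones, their co-chaperones or regulators as far as their names are known. The other 2 only share the naming pattern: Hspg2 encodes perlecan, a proteoglycan of basement membranes, and Hspb11 encodes a protein of intraflagellar transport.

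The tissue was dentate gyrus, micro-dissected on both sides from wild-type male mice of a C57BL/6 background (strain label C57Black6) aged 8 to 10 weeks, with no treatment or engineered allele named in the labels. Poly(A) RNA was sequenced in 3 libraries described as biological replicates, and they form 1 group with nothing to set against it. Values are FPKM, fragment numbers scaled by transcript length and by the mapped total, which is meant to make genes of different length comparable. Whether the length was that of the listed transcript or of the gene is not stated, which limits such comparisons. The table holds 1 value per gene for the whole group, so no value below has an error, no test against replicate spread was possible, the sequencing depth is unknown, and neighbouring values in any order of levels cannot be told apart from equal. The 4 granule cell markers lay between 43.3 FPKM (Dsp) and 111.4 FPKM (C1ql2). Markers of glutamatergic neurons were Slc17a7 at 317.9 FPKM and Camk2a at 1204.8 FPKM. The 9 markers of astrocytes, oligodendrocytes and microglia lay between 6.72 FPKM (Mog) and 260.6 FPKM (Mbp), those of endothelium reached 7.96 FPKM (Cldn5) and those of choroid plexus 6.06 FPKM (Kl). Which cells carried a chaperone transcript was not tested, and in whole tissue fewer cells of a type and less RNA per cell cannot be told apart.

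Chaperones help proteins to fold, keep unfolded chains from aggregating and hand them from one machine to the next. Hsp70 proteins bind short exposed stretches of a client under control of J proteins, which deliver clients and trigger ATP hydrolysis, and of nucleotide exchange factors, which reset the cycle. Hsp90 acts later on kinases, steroid receptors and other clients, while chaperonins enclose clients in a chamber. Some family members are made at all times and others mainly under heat or proteotoxic stress, through the transcription factor Hsf1. Neurons depend on these systems for long-lived proteins, for the clathrin cycle at synapses and for the steroid receptors of the hippocampus.

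As a group the members were abundant. At 1 FPKM or more stood 72 of 86 members (83.7%), against 56.4% of 20113 protein-coding names and 39.6% of all names. At 10 FPKM or more there were 55 members, against 30.8% of protein-coding names and 21.1% of all names. Only 4 members reached 100 FPKM, a share of 4.65% against 2.64% of protein-coding names and 2.08% of all names. The median was 17.8 FPKM over the members and 2.46 FPKM over all protein-coding names. Among genes at 1 FPKM or more, the medians were 22.8 FPKM for the members and 11.5 FPKM for protein-coding names. The members summed to 3091 FPKM, 0.828% of the FPKM of all names outside the mitochondrial chromosome, and Hsp90ab1 alone made up 17.7% of that sum. Listed at 0 were Cct6b, Dnajb8 and Hspb9, whereas 24.2% of protein-coding names and 40.4% of all names were listed at 0. Lonp1, a mitochondrial protease that cells generally use, was also listed at 0, so a 0 in this table can be a failed estimate and does not show that a gene was silent.

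**Figure D1:**
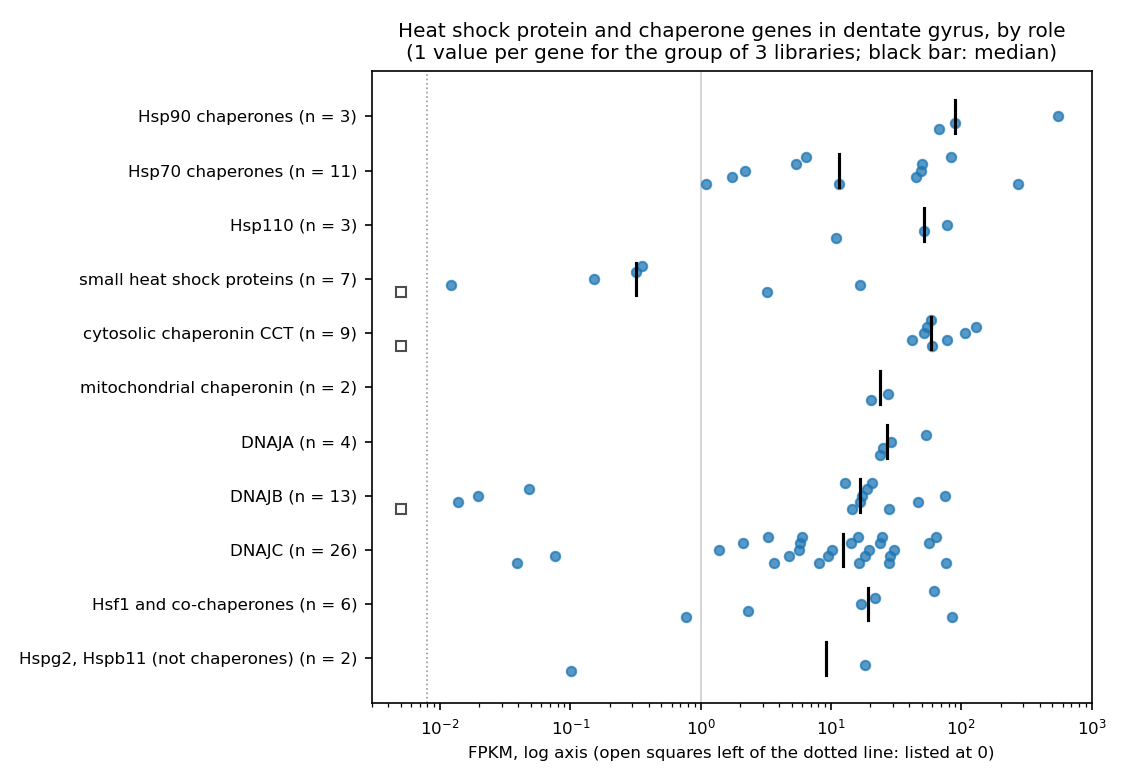
FPKM of each of the 86 members on a log axis, in rows by role; each point is 1 gene, black bars are row medians, and open squares left of the dotted line are genes listed at 0. Hsp90, Hsp110 and most chaperonin genes stand to the right of 10 FPKM, whereas 5 of 7 small heat shock protein genes lie below 1 FPKM.

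The promoters of some members carry the elements through which the stress pathways are known to act, and the levels of these genes are set beside them here. RefSeq windows from 250 bases before to 50 bases after the annotated start (GRCm38.p6) were matched for 71 members. Those not matched were Cct4, Dnajc2, Dnajc5, Dnajc11, Dnajc12, Dnajc18, Dnajc22, Dnajc30, Hsf1, Hsp90aa1, Hsp90ab1, Hspa8, Hspa9, Hspa13 and Hspb2. The heat shock element bound by Hsf1 was searched on both strands as GAA, TTC and GAA with 2 free bases between neighbours. It was present in 4 of 71 members (5.63%), Hspd1, Hspe1, Hsph1 and Dnajb6, of which Hspd1 and Hspe1 share the same matches. Among all 27025 genes with such a window, not selected for protein-coding ones, the share was 0.662%. The endoplasmic reticulum stress element, CCAAT and CCACG with 9 free bases between them on either strand, was present in 3 of 71 members (4.23%), Hspa5, Hsp90b1 and Dnajc3, and in 0.137% of all genes. A match of letters is a description of the sequence and does not show binding.

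Hspd1 and Hspe1 encode the chamber and the lid of the mitochondrial chaperonin, and they are transcribed away from each other from start sites 108 bases apart in the table (mm9). Their RefSeq windows cover nearly the same bases, so the pair counts once as sequence. The window of Hspe1 on chr1:55087898-55088197 (GRCm38.p6, plus strand) is shown because both genes share it, with its 2 overlapping matches to the heat shock element in capitals, from 89 to 72 bases before the Hspe1 start. The shorter stretches of Hsph1 (chr5:149636266-149636324, minus strand) and Dnajb6 (chr5:29735828-29735888, plus strand) hold the other matches, again in capitals. In Hsph1 the match lies after the start, and in both genes the second annotated window holds the same bases.

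Hspe1: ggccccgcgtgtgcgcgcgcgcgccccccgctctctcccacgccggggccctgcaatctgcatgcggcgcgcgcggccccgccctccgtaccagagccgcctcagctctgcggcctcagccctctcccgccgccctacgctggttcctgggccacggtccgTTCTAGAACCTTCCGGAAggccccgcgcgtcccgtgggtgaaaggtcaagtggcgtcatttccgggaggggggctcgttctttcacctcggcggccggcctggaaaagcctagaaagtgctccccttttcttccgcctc
Hsph1: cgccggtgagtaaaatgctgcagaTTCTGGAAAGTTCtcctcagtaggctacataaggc
Dnajb6: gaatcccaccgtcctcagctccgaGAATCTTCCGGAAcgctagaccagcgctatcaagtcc

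Hspd1 stood at 27.3 FPKM and Hspe1 at 20.4 FPKM, a ratio of Hspd1 to Hspe1 of 1.34, or 3.78 with a pseudogene entry of Hspd1 added. Their listed transcripts span 55134679 to 55144868 and 55144976 to 55148151 on chromosome 1 (mm9). Hsph1, an Hsp110 protein that recharges Hsp70 with ATP, was at 77.3 FPKM. Dnajb6, a J protein that suppresses aggregation of polyglutamine proteins, was at 46.8 FPKM. All 4 genes thus lay above 10 FPKM, as did 40 of the 67 members whose windows lacked the element.

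The 3 members with the endoplasmic reticulum stress element encode chaperones of that compartment. The window of Hspa5 (chr2:34771840-34772139, plus strand) holds 1 match from 65 to 47 bases before the start, and it is shown whole as the textbook target of the unfolded protein response. The stretch of Hsp90b1 (chr10:86705509-86705680, minus strand) holds 2 matches, the first along the gene and the second in the opposite direction. Dnajc3 (chr14:118937803-118937869, plus strand) holds 1 match from 105 to 87 bases before the start. Capitals mark the whole element, spacer included.

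Hspa5: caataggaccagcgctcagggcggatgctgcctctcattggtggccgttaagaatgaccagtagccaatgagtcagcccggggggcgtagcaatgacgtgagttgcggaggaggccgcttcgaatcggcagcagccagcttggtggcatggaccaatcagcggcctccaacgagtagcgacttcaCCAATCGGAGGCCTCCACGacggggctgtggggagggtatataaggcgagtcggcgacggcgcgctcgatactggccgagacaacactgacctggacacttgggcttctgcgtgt
Hsp90b1: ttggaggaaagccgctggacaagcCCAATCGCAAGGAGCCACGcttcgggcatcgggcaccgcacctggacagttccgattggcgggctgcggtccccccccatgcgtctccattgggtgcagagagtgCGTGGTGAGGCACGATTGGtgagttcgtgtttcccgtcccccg
Dnajc3: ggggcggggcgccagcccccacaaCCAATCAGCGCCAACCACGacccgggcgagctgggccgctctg

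Hspa5, the Hsp70 of the endoplasmic reticulum known as BiP, stood at 83.8 FPKM. Hsp90b1, its Hsp90 counterpart GRP94, was at 89.4 FPKM, so that the ratio of Hspa5 to Hsp90b1 was 0.94. The transcript listed for Hsp90b1 is a noncoding form with a retained intron, and the one listed for Hspa5 is absent from GENCODE M21. The ratio carries that limit on both sides. Dnajc3, a luminal J protein that assists BiP, was lower at 10.2 FPKM. Shorter pairs of heat shock units, which the full element also contains, were commoner: GAANNTTC occurred in 15 of 71 members (21.1%) against 9.04% of genes, and TTCNNGAA in 8 members (11.3%) against 9.6%. Both pairs were searched after the values had been seen. The first pair was present in the inducible genes Hspa1a and Hspa1b and in the small heat shock protein genes Hspb1, Hspb3, Hspb6 and Hspb8. It was also present in Bag3, Cct2, Dnaja1, Dnaja4 and Dnajc27 and in the 4 genes with the full heat shock element.

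**Figure D2:**
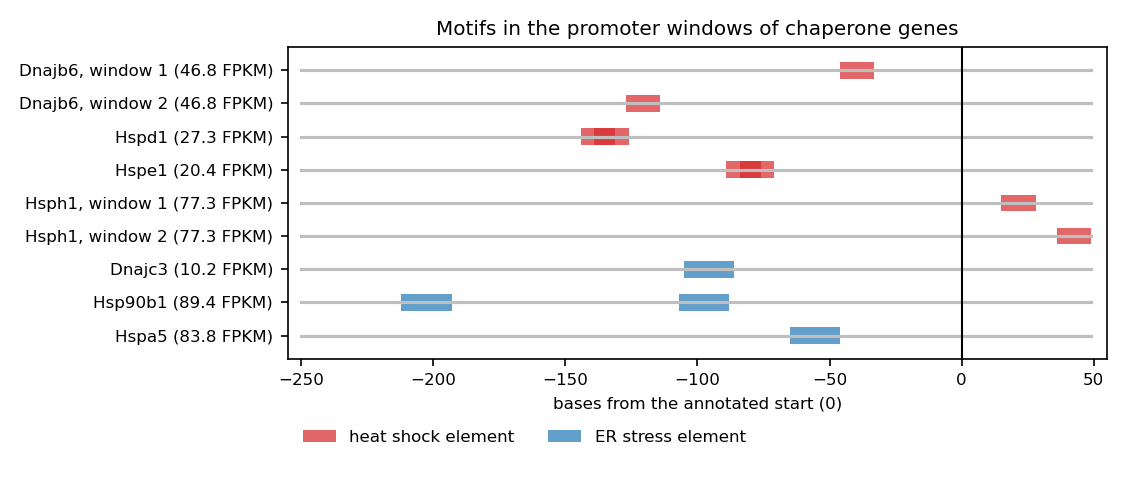
Position of the heat shock element (red) and the endoplasmic reticulum stress element (blue) in the promoter windows of the 7 members that hold one, in bases from the annotated start at 0; Dnajb6 and Hsph1 have 2 annotated windows each. In the Hspd1 and Hspe1 windows 2 matches overlap, and the Hsp90b1 window holds 2 separate matches.

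Among the cytosolic Hsp90 genes, the constitutive form was listed above the inducible one. Hsp90ab1 reached 548.0 FPKM and was the highest member, ranking 52 among all names, with its listed transcript on chromosome 17 from 45704724 to 45710220 (mm9, minus strand). Hsp90aa1, the stress-inducible form, was listed at 67.9 FPKM, a ratio of Hsp90ab1 to Hsp90aa1 of 8.07. That ratio rests on the division of reads between Hsp90aa1 and 2 pseudogene entries described below, and it was 2.71 when their values were added to Hsp90aa1. The transcript listed for Hsp90aa1 is a short form with 605 coding bases, against 2199 in the longest form.

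The Hsp70 family showed the same order, with the constitutive gene on top. Hspa8, the constitutive Hsc70 that also uncoats clathrin vesicles, stood at 273.8 FPKM, rank 156 among all names, with its listed transcript on chromosome 9 from 40609067 to 40613283 (mm9, plus strand). The inducible genes were Hspa1b at 6.42 FPKM and Hspa1a at 5.36 FPKM. Hspa8 exceeded them by 42.7-fold and 51.1-fold. The transcripts of Hspa1a and Hspa1b were 99.1% identical over 2200 aligned bases in GENCODE M21, so the division of reads between them is uncertain, while their sum remains far below Hspa8. Hspa1l, their neighbour and a gene known mainly from testis, was at 2.18 FPKM. It starts 579 bases from Hspa1a on the opposite strand and overlaps the antisense entry Gm10501 at 1.74 FPKM, and no step that marks the strand is described.

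Other Hsp70 genes covered a wide range. Hspa2, which is known for its role in spermatogenesis, was nevertheless at 49.9 FPKM, and Hspa8 exceeded it by 5.49-fold. Hspa9, the mitochondrial Hsp70 mortalin, was at 49.5 FPKM, a ratio of Hspa9 to Hspa5 of 0.59. The divergent family members Hspa12a and Hspa12b were at 45.0 and 1.10 FPKM, a ratio of 41.0. Hspa13, a microsomal ATPase, was at 11.6 FPKM, and Hspa14, a member known from human cells to act at ribosomes, was at 1.75 FPKM. All 11 Hsp70 genes reached 1 FPKM and 6 of them 10 FPKM, with a median of 11.6 FPKM. In the Hsp110 group, Hspa4 was at 52.0 FPKM, a ratio of Hspa4 to Hsph1 of 0.67, and Hspa4l was at 10.9 FPKM.

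**Figure D3:**
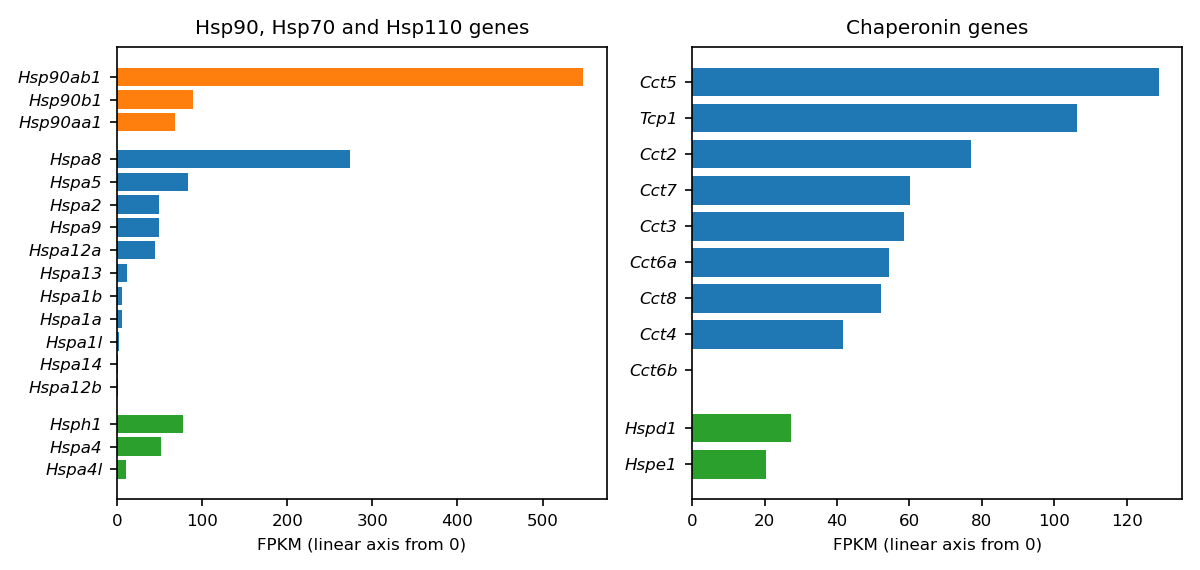
FPKM on linear axes of the Hsp90 (orange), Hsp70 (blue) and Hsp110 (green) genes in the left panel, and of the CCT (blue) and mitochondrial (green) chaperonin genes in the right panel; each bar is the single value of 1 gene. Hsp90ab1 at 548.0 FPKM and Hspa8 at 273.8 FPKM stand apart from their inducible relatives, and the 8 CCT subunit genes above 0 lie between 41.5 and 128.8 FPKM.

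The cytosolic chaperonin CCT, which folds actin and tubulin, is a double ring in which each of its subunits takes a fixed place. The genes of the 8 somatic subunits were listed within a 3.10-fold range, with a median of 59.3 FPKM. Cct5 was highest at 128.8 FPKM and Tcp1, the alpha subunit, followed at 106.2 FPKM. Below them came Cct2 at 77.1 FPKM, Cct7 at 60.1 FPKM, Cct3 at 58.6 FPKM, Cct6a at 54.4 FPKM, Cct8 at 52.1 FPKM and Cct4 at 41.5 FPKM. Cct6b, the testis form of the zeta subunit, was listed at 0. The transcripts listed for Tcp1 (329 bases) and Cct6a (1599 bases) are noncoding forms, so their places in this order carry that limit. Prefoldin, which passes nascent actin and tubulin to CCT, had 6 genes around a median of 32.4 FPKM, led by Pfdn5 at 119.1 FPKM and Pfdn2 at 61.9 FPKM, and with Pfdn4 lowest at 23.1 FPKM.

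Small heat shock proteins, ATP-independent holdases, were the lowest chaperone class. Of 7 genes, 2 reached 1 FPKM, and the median was 0.319 FPKM. Hspb8, which works with Bag3 in selective autophagy, was highest at 16.8 FPKM. Hspb6 was at 3.21 FPKM, 8.98 times Hspb1 at 0.358 FPKM, although 1.46 times when the entry of an Hspb1 pseudogene was added. Hspb3 was at 0.319 FPKM, Hspb2 at 0.152 FPKM and Hspb7 at 0.0122 FPKM, all 3 known mainly from muscle, and the testis gene Hspb9 was listed at 0. Their relative Cryab, an alpha-crystallin known from glia and muscle, stood at 36.7 FPKM, a ratio of Hspb1 to Cryab of 0.0097, or 0.060 with the Hspb1 pseudogene entry added, whereas the lens gene Cryaa was listed at 0. Cryab and Hspb2 start 404 bases apart on opposite strands, and their values were 36.7 and 0.152 FPKM.

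J proteins were the largest class, with 43 genes, of which 37 reached 1 FPKM and 27 reached 10 FPKM around a median of 16.3 FPKM. By class, the medians were 27.1 FPKM for 4 Dnaja genes, 16.6 FPKM for 13 Dnajb genes and 12.3 FPKM for 26 Dnajc genes. All 8 cytosolic J proteins that pass clients to Hsp70 were above 10 FPKM. By their own entries, Dnajb5 led them at 74.8 FPKM, ahead of Dnaja2 at 53.7 FPKM and Dnajb6 at 46.8 FPKM. With pseudogene entries added, the sums were 175.9 FPKM for Dnajb6 and 149.7 FPKM for Dnaja1. FPKM is scaled by length, and the listed Dnajb6 transcript has 2918 bases, whereas its copies align over 696 to 722. For Dnaja1 these lengths are 379 and 1194 bases. Such sums, and ratios made from them, are therefore not on a common scale and set no order. Dnaja1 at 25.2 FPKM exceeded the heat-inducible Dnajb1 at 17.4 FPKM by 1.44-fold, or by 8.59-fold with the Dnaja1 pseudogene entries added. Dnaja4 was at 23.8 FPKM, Dnajb4 at 19.0 FPKM and Dnajb2, a J protein that is enriched in neurons and binds ubiquitin, was lowest at 14.5 FPKM. Dnajb6 exceeded Dnajb2 by 3.22-fold, or by 12.1-fold with the Dnajb6 pseudogene entries added.

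J proteins of the clathrin and vesicle cycle included some of the highest values. Dnajc5, the cysteine string protein that keeps SNAP-25 folded on synaptic vesicles, was at 64.4 FPKM. Dnajc6, the neuronal auxilin that recruits Hsc70 to clathrin coats, was at 57.0 FPKM, and its widely expressed relative Gak at 31.2 FPKM, a ratio of Dnajc6 to Gak of 1.83. Dnajc13, an endosomal protein, was lower at 6.03 FPKM. The relatives of cysteine string protein known from testis, Dnajc5b and Dnajc5g, were listed at 0.

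J proteins of organelles had moderate levels. In the endoplasmic reticulum, 7 genes ranged from Dnajc1 at 4.77 FPKM to Dnajb11, a BiP partner, at 27.9 FPKM. Between them stood Dnajb12 at 20.5 FPKM, Dnajb9 at 16.6 FPKM, Dnajc10, a disulfide reductase, at 16.3 FPKM, Dnajb14 at 12.7 FPKM and Dnajc3. In mitochondria, Dnajc30 at 30.5 FPKM, Dnaja3 at 28.9 FPKM, Dnajc11 at 24.8 FPKM and Dnajc15 at 23.9 FPKM lay close together. Dnajc19, a subunit linked to the import motor, was at 3.66 FPKM, but a pseudogene entry that shares 281 bases of its sequence was at 38.4 FPKM.

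J proteins of ribosomes, splicing and histones were lower, with a median of 5.79 FPKM over 5 genes. The splicing factor Dnajc8 was at 27.9 FPKM and Dnajc9, a histone co-chaperone known from human cells, at 14.3 FPKM. Dnajc2, which acts at the ribosome exit, was at 5.79 FPKM, Dnajc21, a ribosome assembly factor, at 5.71 FPKM and Dnajc17 at 2.10 FPKM. The 4 genes known mainly from testis or cilia were near or at 0, with Dnajb3 at 0.0479 FPKM, Dnajb7 at 0.0197 FPKM, Dnajb13 at 0.0138 FPKM and Dnajb8 listed at 0. Outside these subgroups, Dnajc7, a TPR protein that links Hsp70 and Hsp90, was the highest J protein by its own entry at 77.0 FPKM, with a listed noncoding form of 770 bases. The sums with pseudogene entries added, 175.9 FPKM for Dnajb6 and 149.7 FPKM for Dnaja1, cannot be ranked against Dnajc7, because the lengths differ. Dnajc27 was at 28.5 FPKM. The remaining 9 genes ranged down from Dnajc18 at 19.7 FPKM through Dnajc14 (18.2), Dnajc16 (16.0), Dnajc4 (9.43), Dnajc12 (8.04), Dnajc28 (3.29), Dnajc25 (1.38) and Dnajc24 (0.0764) to Dnajc22 at 0.0391 FPKM.

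**Figure D4:**
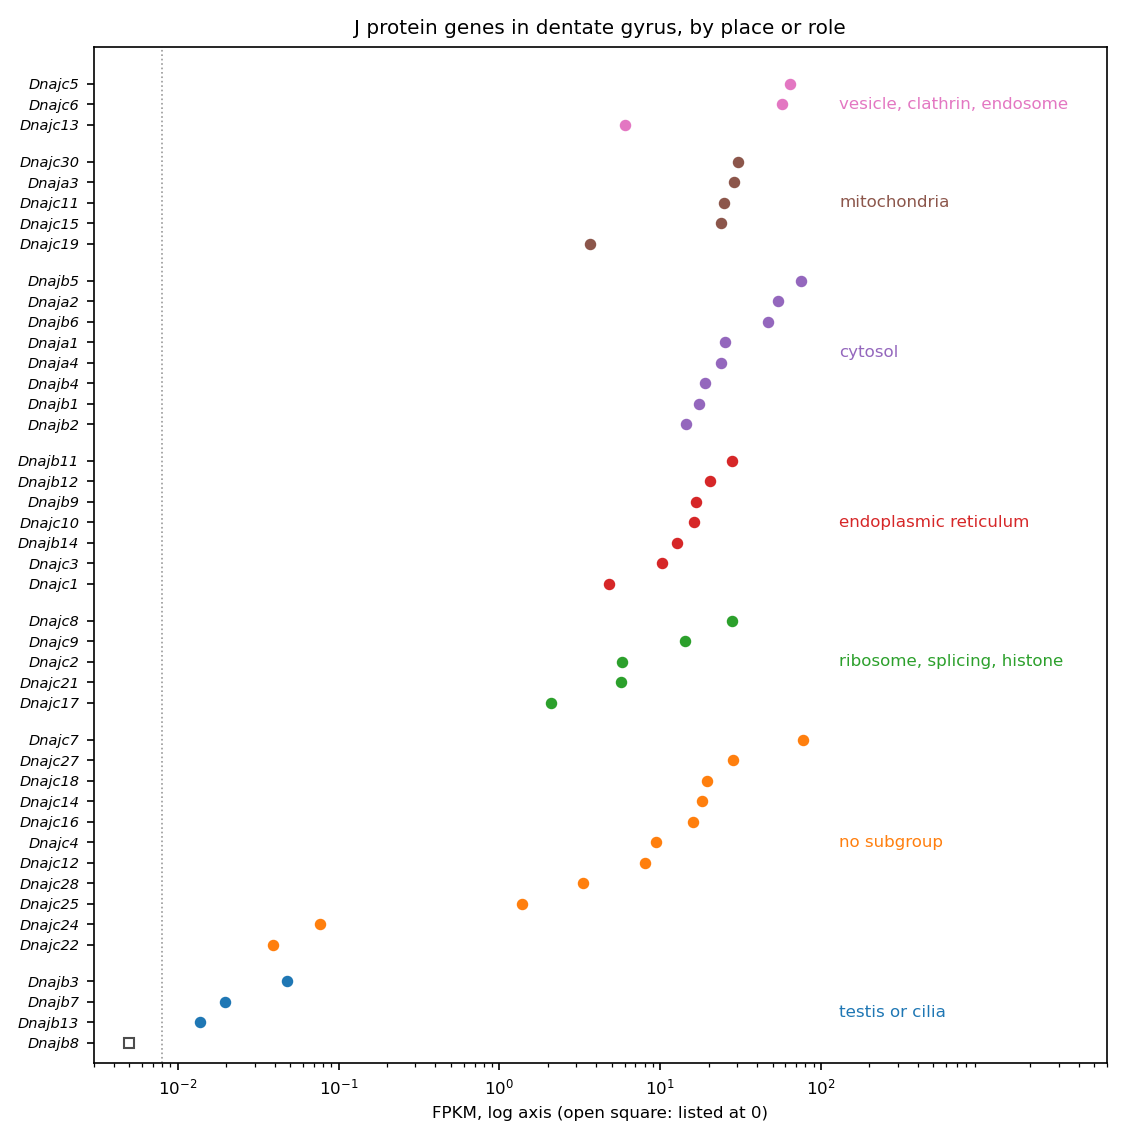
FPKM of the 43 J protein genes on a log axis, grouped from top to bottom by place or role; each point is 1 gene and the open square is Dnajb8, listed at 0. The cytosolic genes all lie between 14.5 and 74.8 FPKM, and the testis or cilia genes lie at the far left, below 0.05 FPKM.

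Co-chaperones and regulators covered a wide range of levels. Hsf1, the main activator of the heat shock response, was at 17.0 FPKM, 1.74 times its relative Hsf2 at 9.74 FPKM. Hsbp1, a small protein that binds Hsf1, was at 147.8 FPKM, while Hsf5 was at 0.0293 FPKM. Bag1, a nucleotide exchange factor of Hsp70, was at 84.5 FPKM, 36.5 times Bag3, the stress-induced family member, at 2.31 FPKM. Stip1, also called Hop, passes clients from Hsp70 to Hsp90 and stood at 62.2 FPKM, a ratio of Stip1 to Hsp90aa1 of 0.92, or 0.31 with the Hsp90aa1 pseudogene entries added. Hspbp1, an exchange factor, was at 21.7 FPKM and Hspbap1, named as a binding partner of Hspb1, at 0.773 FPKM. The naming-only members Hspb11 and Hspg2 were at 18.4 and 0.101 FPKM.

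Partner genes outside the rule give the setting of each machine. All 12 Hsp90 co-chaperone genes were above 10 FPKM with a median of 47.7 FPKM. The immunophilin Fkbp4, a cofactor of steroid receptors, led them at 73.5 FPKM, ahead of the ATPase activator Ahsa1 at 68.8 FPKM, and Unc45a was lowest at 13.3 FPKM. Other exchange factors of Hsp70 had a median of 14.1 FPKM, with Bag6 at 53.3 FPKM, Bag4 at 35.0 FPKM and Bag2 at 4.52 FPKM.

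In the endoplasmic reticulum, the lectin chaperones Calr at 179.6 FPKM and Canx at 86.1 FPKM led 9 genes with a median of 40.3 FPKM, and Sdf2l1 was lowest at 6.91 FPKM. Calr thus stood above Hsp90b1 and Hspa5. Regulators of the unfolded protein response had a median of 19.9 FPKM, with Atf4 at 50.1 FPKM, Xbp1 at 42.1 FPKM and Ern1 at 2.08 FPKM. In mitochondria, the Hsp90 relative Trap1 was at 27.5 FPKM and the protease subunit Clpp at 26.5 FPKM in a list with a median of 11.2 FPKM, where Lonp1 was listed at 0. Hspd1 stood at a ratio of 0.55 to Hspa9, which turned to 1.55 with the pseudogene entry of Hspd1 added. Among J proteins with other names, Sec63 of the translocon was at 13.2 FPKM.

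Several members have near-identical pseudogene copies that hold their own entries in the same table, some with values above the gene itself. At 95% identity over at least 250 bases, limits chosen after the values had been seen, 7 members had 13 such entries, and 12 of these were at 1 FPKM or more. Dnaja1 at 25.2 FPKM had 3 entries that summed to 124.6 FPKM, led by Gm15542 at 65.0 FPKM, which is 99.4% identical to it over 1194 bases. For Dnajb6 at 46.8 FPKM, 4 entries summed to 129.2 FPKM, with Gm13414 at 49.8 FPKM and Gm6395 at 47.2 FPKM on top. Hsp90aa1 at 67.9 FPKM had Gm12346 at 93.7 FPKM, 99.5% identical over 2255 bases, and Gm5844 at 40.6 FPKM. Hspd1 at 27.3 FPKM had Gm12141 at 49.6 FPKM, 99.0% identical over 1722 bases. The Hspb1 entry at 0.358 FPKM stood beside Hsp25-ps1 at 1.84 FPKM, and Dnajc17 at 2.10 FPKM beside Gm6257 at 0.821 FPKM. Whether reads of the genes were assigned to these entries was not tested. FPKM is scaled by length, so values of entries with unlike lengths do not add up to the level of a gene. Hspa8 had 5 such copies in GENCODE M21, and none of these matched an entry of the table by identifier. Overlap with a neighbouring gene also leaves the division of reads uncertain for Dnaja4, which shares 1581 transcript bases with Wdr61 at 31.6 FPKM, and for Dnajc14, which shares 1114 with Ormdl2 at 1.21 FPKM. Shorter stretches carry the same limit for Dnaja1 with Smu1 (608 aligned bases), Tcp1 with Acat3 (574) and Acat2 (445), and Cct6a with Psph (452). The same holds for Dnajc30 with Wbscr22 (436), Dnajb13 with Ucp2 (305), Dnajc7 with Nkiras2 (296) and Hspb2 with Cryab (252).

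**Figure D5:**
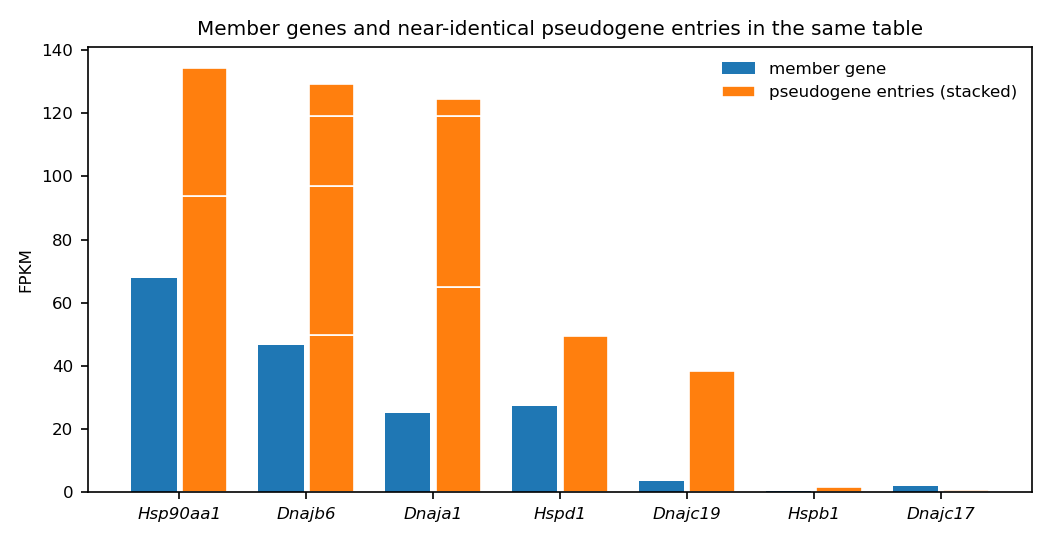
FPKM of 7 member genes (blue bars) beside the FPKM of their near-identical pseudogene entries in the same table (orange, entries stacked), on a linear axis from 0. For 6 of the 7 genes the pseudogene entries sum to more than the gene, as for Dnaja1 with 124.6 against 25.2 FPKM. For Dnajc17 they sum to less. FPKM is scaled by length, so a stack is not the level of a gene.

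Other features of position and structure were shared by part of the members. A start site on the opposite strand, facing away and within 1000 bases, was found for 20 of 86 members (23.3%), against 9.91% of protein-coding names, as judged from the listed transcripts. Members paired with each other in this way were Hspd1 with Hspe1 and Hspa1a with Hspa1l. Of the other pairs, Cct5 at 128.8 FPKM started 5 bases from Fam173b at 3.88 FPKM, and Bag1 at 84.5 FPKM started 126 bases from Chmp5 at 45.0 FPKM, both singled out after their values were seen. Hsf1 at 17.0 FPKM started 166 bases from Bop1 at 36.1 FPKM. A listed transcript of a single exon was found for 8 of 79 members (10.1%), against 9.17% of protein-coding names. These were Dnajc30, Hspa1b, Hspa1a, Hspb3, Dnajb3, Dnajb7, Dnajb8 and Hspb9, of which the first 3 reached 1 FPKM.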

How the data were processed

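Poly(A) RNA of micro-dissected dentate gyrus was sequenced with an Illumina instrument (labels' protocols). The submitters' processing notes name TopHat, Cufflinks, mm9 and NCBIM37, and no versions were found. The authors deposited FPKM in 1 column for the whole series, named so in the file header. No source used here says whether the 3 libraries were pooled or averaged, and depth is unknown. Of 37681 rows, 36469 hold a value; rows sharing a name were summed.

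Each row lists 1 transcript, and whether its value belongs to that transcript or to the gene is not stated. By identifier in GENCODE M21, the listed transcript was full-length coding for 59 members and shorter coding for 9. It was a noncoding or decay form for 11 (Cct6a, Dnaja1, Dnaja3, Dnajb4, Dnajc7, Dnajc15, Dnajc22, Hsp90b1, Hspb6, Hspbap1 and Tcp1). It was absent for 7 (Dnajb2, Dnajc14, Hsf1, Hspa4l, Hspa5, Hspg2 and Hsph1), and ratios with these genes carry that limit. Among protein-coding names at 1 FPKM or more, the median was 11.7 FPKM for noncoding or decay forms and 11.4 FPKM for coding forms.

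The rule for the members used names only, but it and the lists were set with earlier results of these data known. Named were all members outside the J proteins, the J protein subgroups and the 5 highest and lowest of each class, the 2 highest and the lowest of each partner list, and the genes of 20 pairs; all other members were then named too. Pfdn6 was matched by identifier (H2-Ke2 in the table). Copies were searched with blastn 2.17.0 in GENCODE M21 transcripts. The motif search was tested on simulated data with planted motifs. The planned protein features were not analysed here. Tables and figures were made with pandas 2.3.3, matplotlib 3.10.9 and numpy 2.4.6 under Python 3.11.15.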

Additional observations from a re-analysis of the deposited data

How the results depend on the processing

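The values are single numbers without replicate spread, so a value was taken as moved when it differed by more than 1.5 times. Of 151 recomputed values, 116 stayed within that limit, 34 moved and 1 changed direction. Those that stayed include 20 levels or ratios and 18 medians recomputed with the highest row kept for a shared name. Only Hspa14 has 2 rows among the members, so most of these could not differ. Leaving out genes under 0.1 FPKM likewise cannot change a list that has none. The counts are therefore no measure of how stable the results are. With the mean of log2(FPKM + 0.1) in place of the median, turned back into FPKM, the summary was 9.70 over all members, 149.3 for Hsp90, 0.507 for small heat shock proteins, 32.7 for CCT, 12.6 for Hsf1 and co-chaperones, 4.51 for Dnajb, 8.10 for all J proteins, 28.2 for vesicle J proteins, 7.25 for the mitochondrial partners, 1.82 for alpha-crystallins and 2.34 for J proteins with other names. The CCT value was taken over 9 genes, with Cct6b, listed at 0, among them. The median of these 9 genes was 58.6 FPKM. With a pseudocount of 1 the summary was 149.6 for Hsp90, 1.06 for small heat shock proteins and 8.20 for Dnajb. It was 10.8 for all J proteins and 28.9 for vesicle J proteins. Without genes under 0.1 FPKM, the medians were 36.7 FPKM for alpha-crystallins and 11.2 FPKM for J proteins with other names. In the same setting, the list of other heat shock factors had a median of 9.74 FPKM. That list was then Hsf2, Hsf4 and Hsbp1, of which Hsbp1 is a protein that binds Hsf1. With a pseudocount of 1 FPKM, the ratio of Hspa12a to Hspa12b was 21.9, Hspb6 to Hspb1 3.10 and Hspb1 to Cryab 0.036. The full-length, pseudogene copy and 90% identity alternatives were chosen after seeing the data, as was leaving out Hspg2 and Hspb11. With full-length coding entries only, the Hsp90 median was 548.0 FPKM, the value of Hsp90ab1 alone. With pseudogene copies added to each gene, the medians were 202.2 FPKM for Hsp90, 48.6 FPKM for the mitochondrial chaperonin, 41.3 FPKM for Dnaja and 38.8 FPKM for cytosolic J proteins. In that setting the ratio of Hspd1 to Hspa9 changed direction, to 1.55, while Dnaja1 to Dnajb1 became 8.59 and Dnajb6 to Dnajb2 12.1. Hspd1 to Hspe1 became 3.78 and Stip1 to Hsp90aa1 0.31. Those sums add FPKM of entries with unlike lengths and are not levels of the genes. At 90% identity, 26 pseudogene matches of 13 members were found, 17 of them at 1 FPKM or more. Leaving out single libraries was not run, since 1 value per gene was analysed. No paired analysis was possible because there is 1 group and no value per library.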
